A study of Mus musculus with 12 samples.

Results

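Neurotrophins and the GDNF family ligands are secreted survival factors for neurons, and 8 genes of these 2 systems were followed here through the mouse retina: the ligands Bdnf, Ntf3 and Gdnf and the receptors Ntrk2, Ntrk3, Ngfr, Gfra1 and Ret. They were found by gene symbol and Ensembl identifier among the 54532 genes of the deposited count and FPKM files, and all 8 were present in both. An expression filter left 18299 genes to be tested, 6 of the 8 among them. Ntf3 and Gdnf had too few counts. None of the 6 tested genes passed the test between any pair of groups, and the sizes of difference that the data still allow are given for each.

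The retinas came from 12 libraries, 3 in each of 4 groups of wild type C57BL/6 mice aged 13 weeks. SHAM mice were labelled as a sham control, with no further treatment named in the labels. MOG mice had been immunized with a myelin oligodendrocyte glycoprotein peptide, given in adjuvant with pertussis toxin, which induces experimental autoimmune encephalomyelitis (EAE) with optic neuritis. GB20 and GV16 mice had been immunized in the same way and were then needled repeatedly, GB20 mice at the acupoint of that name and GV16 mice at a control site. The needling was done under xylazine and ketamine, so the needled groups also received repeated anaesthesia, which is not stated for the others. Each library could hold retinas of more than 1 mouse, and whole retina was sequenced, so fewer cells of a type and less RNA per cell cannot be told apart.

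In the neurotrophin system, Bdnf activates the receptor tyrosine kinase TrkB, the product of Ntrk2, and Ntf3 activates mainly TrkC, the product of Ntrk3. Ngfr encodes p75, a receptor of the tumour necrosis factor receptor family that binds all neurotrophins and their precursors. In the GDNF system, Gdnf binds Gfra1, a receptor anchored to the membrane without a kinase of its own, and the complex then activates the receptor tyrosine kinase Ret. BDNF is known as a survival factor of retinal ganglion cells (RGCs), the neurons whose axons form the optic nerve, and Müller cells, the main retinal glia, are known to carry p75 and receptors for the GDNF family.

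On GRCm38, Bdnf (ENSMUSG00000048482) lies on the plus strand at chr2:109674700-109727007 with 11 annotated transcripts. Ntf3 (ENSMUSG00000049107) lies on the minus strand at chr6:126101412-126166910, and Gdnf (ENSMUSG00000022144) on the plus strand at chr15:7810846-7837575. Of the receptors, Ntrk2 (ENSMUSG00000055254) lies on the plus strand at chr13:58806569-59133970 with 10 transcripts, of which 7 are coding. Ntrk3 (ENSMUSG00000059146) lies on the minus strand at chr7:78175959-78738012 with 20 transcripts, of which 6 are coding. Ngfr (ENSMUSG00000000120) lies on the minus strand at chr11:95568818-95587735, Gfra1 (ENSMUSG00000025089) on the minus strand at chr19:58235604-58455909 and Ret (ENSMUSG00000030110) on the minus strand at chr6:118151745-118197718. Reads were counted per gene over all exons, so the full-length and the truncated forms of TrkB and TrkC, which lack the kinase, were not separated. The NEBNext Ultra kit does not mark strand, and 14.4% of the exonic bases of Bdnf overlap the antisense gene Gm45346, which itself had 21 counts over the 12 libraries. For Gfra1, 7.60% of the exonic bases overlap the antisense gene Gm16277, which had 0 counts. How reads in shared bases were counted is not given, so these counts do not show what either overlap added or removed.

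Bdnf is transcribed from several start sites, each with its own regulatory region, and the count of the gene adds up all of them. RefSeq (GRCm38.p6) gave 14 start windows of 300 bases for 6 of the 8 genes, 7 of them for Bdnf, 2 each for Gdnf and Ntf3 and 1 each for Gfra1, Ngfr and Ntrk2. The windows were searched on both strands for TGACGTGA, a variant of the element bound by the activity-dependent factor CREB, and for the full element TGACGTCA. The variant was found in 1 of the 14 windows, a Bdnf window, and in 145 (0.441%) of all 32851 windows of that length. The full element was found in 0 of the 14 windows and in 588 (1.79%) of all windows. The 250 bases upstream of that Bdnf start, chr2:109692186-109692435 on the plus strand, are shown because Bdnf is the gene of the 8 best known for activity-dependent transcription. Capitals mark the match, read here as TCACGTCA, 38 to 31 bases upstream of the start.
Bdnf: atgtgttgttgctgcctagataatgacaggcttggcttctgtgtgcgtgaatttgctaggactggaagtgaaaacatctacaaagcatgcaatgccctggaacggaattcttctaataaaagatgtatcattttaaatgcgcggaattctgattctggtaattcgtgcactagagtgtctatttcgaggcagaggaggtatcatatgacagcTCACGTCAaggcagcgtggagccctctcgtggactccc
The match is a description of the letters, and the counts do not tell which start was used.

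Per gene length, 4 of the 5 receptors stood above all 3 ligands, the exception being Ntrk3. FPKM, the authors' measure of fragments per gene length and library depth, averaged 10.6 for Ngfr over the 12 libraries (9.26 to 11.8), the highest of the 8 genes. Ret followed at 6.07 (5.27 to 7.26) and Gfra1 at 5.41 (4.78 to 6.00), and the ranges of these neighbours overlapped. The kinase receptor of BDNF, Ntrk2, stood at 3.35 (2.97 to 3.62) and its ligand Bdnf at 1.51 (1.01 to 1.92). Bdnf and Ntrk3, at 1.23 (0.964 to 1.55), overlapped in range. Gdnf averaged 0.0898 (0.0496 to 0.163), which is 13.7 times lower than Ntrk3, and overlapped with Ntf3 at 0.0600 (0 to 0.140). All other neighbours in this order were separated over the 12 libraries. Levels of Ntrk2 and Ntrk3 per length are lowered where a transcript shorter than the summed exons was the one made, which gene counts do not show.

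**Figure D1:**
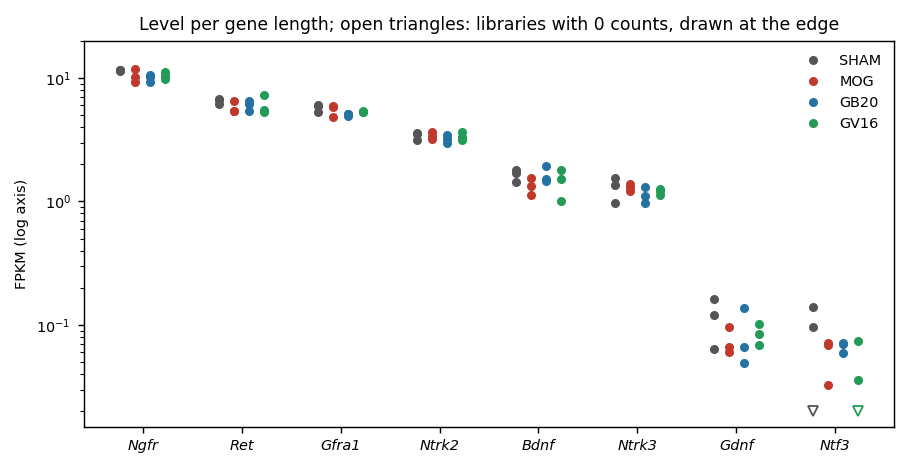
FPKM on a log axis for the 8 genes, ordered by their mean, with 1 point per library and the 4 groups side by side. Ngfr is highest at 9.26 to 11.8 FPKM in every library, and Gdnf and Ntf3 stay at or below 0.163 FPKM; the open triangles mark the 2 libraries in which Ntf3 had 0 counts.

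Bdnf, the ligand of TrkB, had the widest spread of the tested genes. In CPM, counts brought to a common library size with the TMM scaling of edgeR, it measured 8.96, 11.3 and 10.6 in SHAM and 8.40, 7.13 and 9.67 in MOG. In the needled groups it measured 12.1, 9.42 and 9.14 at GB20 and 9.56, 11.2 and 6.32 at GV16. The lowest library of all was a GV16 library and the highest a GB20 library, and every pair of groups overlapped. The SHAM mean was 10.3 ± 1.20 CPM, the MOG mean 8.40 ± 1.27, the GB20 mean 10.2 ± 1.64 and the GV16 mean 9.02 ± 2.48 (SD, n = 3 each).

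The difference in Bdnf between MOG and SHAM was -0.29 on the log2 scale (SE 0.176, adjusted p = 0.502, edgeR quasi-likelihood test). Its 95% interval, -0.66 to 0.073, equals a change of -36.6% to 5.23% in MOG. Between GB20 and MOG the difference was 0.29 (SE 0.176, interval -0.078 to 0.65, adjusted p = 0.697). Leaving out GB20 replicate 1 took it to 0.14 and leaving out MOG replicate 3 to 0.39. Between GV16 and MOG it was 0.10, and between GB20 and GV16 it was 0.19 (interval -0.18 to 0.55, adjusted p = 0.9999). MOG libraries enter the comparison with SHAM and the comparisons with both needled groups, so a low MOG mean moves all 3 values. These differences are within the spread between replicates, and the intervals of Bdnf over the 6 comparisons still hold changes from -36.6% to 57.3%.

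Ntf3, the ligand of TrkC, was hardly detected. SHAM libraries had 4, 0 and 3 counts, MOG libraries 1, 2 and 2, GB20 libraries 2, 2 and 2 and GV16 libraries 0, 2 and 1. The SHAM library with 0 counts allows a level of up to 0.176 CPM and the GV16 library with 0 counts up to 0.186 CPM, taking 3 counts as the limit and counting error alone. With 21 counts over 12 libraries, a difference between groups was not detectable at this depth.

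Gdnf was likewise low, with 10, 4 and 8 counts per SHAM library, 4, 4 and 6 per MOG library, 10, 4 and 3 per GB20 library and 6, 4 and 5 per GV16 library. The groups overlapped in CPM, which ran from 0.183 in a GB20 library to 0.605 in a SHAM library. Fitted without the filter on low counts, Gdnf had a smallest unadjusted p of 0.327 in the 6 comparisons of edgeR and Ntf3 one of 0.389, with adjusted p of 0.748 and 0.826.

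Ntrk2, which encodes TrkB, had the smallest spread of the kinase receptors over the 12 libraries (CV 6.50%, against 10.7% for Ret and 13.7% for Ntrk3). It measured 68.8, 60.6 and 70.4 CPM across SHAM libraries, 70.0, 62.2 and 66.3 across MOG, 58.1, 62.6 and 66.9 across GB20 and 70.2, 65.1 and 60.9 across GV16. All 4 groups overlapped. MOG differed from SHAM by -0.0099 on the log2 scale (SE 0.0806, adjusted p = 0.974), with an interval of -11.5% to 11.5%. Over the 6 comparisons its differences lay between -0.092 and -0.0099, and the intervals between -16.5% and 11.5%. With the length trend described further on removed, MOG differed from SHAM by -0.14 (interval -0.30 to 0.014, adjusted p = 0.439) and GV16 by -0.14 (adjusted p = 0.516).

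Ntrk3, which encodes TrkC, measured 47.2, 29.3 and 41.8 CPM across SHAM libraries, 41.6, 39.9 and 36.9 across MOG, 33.8, 29.7 and 39.7 across GB20 and 36.8, 34.4 and 38.3 across GV16. SHAM held both the highest and the lowest library, and its SD of 9.14 CPM was the largest of the 4 groups. The difference between MOG and SHAM was 0.0018 on the log2 scale (SE 0.136), with an interval from -0.29 to 0.29. Against MOG, GB20 differed by -0.20 (adjusted p = 0.747) and GV16 by -0.11 (adjusted p = 0.998). The GB20 value was -0.11 without GB20 replicate 2 and -0.31 without GB20 replicate 3.

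Ngfr, the p75 receptor, was tightly grouped in SHAM at 40.2, 39.6 and 40.2 CPM. In MOG it measured 40.8, 32.6 and 35.5, so 1 MOG library lay above all SHAM libraries and the others below. GB20 libraries measured 32.4, 36.5 and 35.3 CPM and GV16 libraries 38.6, 33.9 and 35.9, all 6 below the lowest SHAM library. MOG differed from SHAM by -0.14 on the log2 scale (SE 0.0878, interval -0.32 to 0.043, adjusted p = 0.520), with -0.23 when MOG replicate 1 was left out and -0.067 when MOG replicate 2 was. GB20 differed from SHAM by -0.21 (SE 0.0880, interval -0.39 to -0.023), the only one of the 36 tests of these genes with an unadjusted p under 0.05 in edgeR, and it did not pass adjustment over all genes (adjusted p = 0.481). GV16 differed from SHAM by -0.15 (adjusted p = 0.567), and against MOG the differences were -0.067 for GB20 and -0.0083 for GV16.

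Gfra1, the ligand-binding receptor of GDNF, measured 33.2, 29.1 and 33.0 CPM across SHAM libraries, 32.2, 32.8 and 26.4 across MOG, 28.5, 27.1 and 28.1 across GB20 and 29.0, 29.3 and 29.9 across GV16. Both needled groups were narrow, with an SD of 0.766 CPM in GB20 and 0.464 in GV16, and GB20 lay below all libraries of SHAM and of GV16. The difference between GB20 and SHAM was -0.18 on the log2 scale (SE 0.0911, interval -0.37 to 0.0040, adjusted p = 0.568). Between GB20 and GV16 it was -0.075 (SE 0.0918, adjusted p = 0.9999), and between MOG and SHAM -0.057 (SE 0.0907, adjusted p = 0.828).

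Ret, the kinase shared by the GDNF family, measured 45.2, 41.6 and 46.3 CPM in SHAM and 43.8, 36.9 and 36.6 in MOG. It measured 37.3, 42.02 and 43.7 in GB20 and 49.3, 36.0 and 37.5 in GV16, where 1 library was the highest of all 12. The groups overlapped in every comparison. MOG differed from SHAM by -0.18 on the log2 scale (SE 0.106, interval -0.40 to 0.039, adjusted p = 0.493), and both needled groups differed from MOG by 0.066 (adjusted p = 0.898 for GB20 and 0.998 for GV16).

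**Figure D2:**
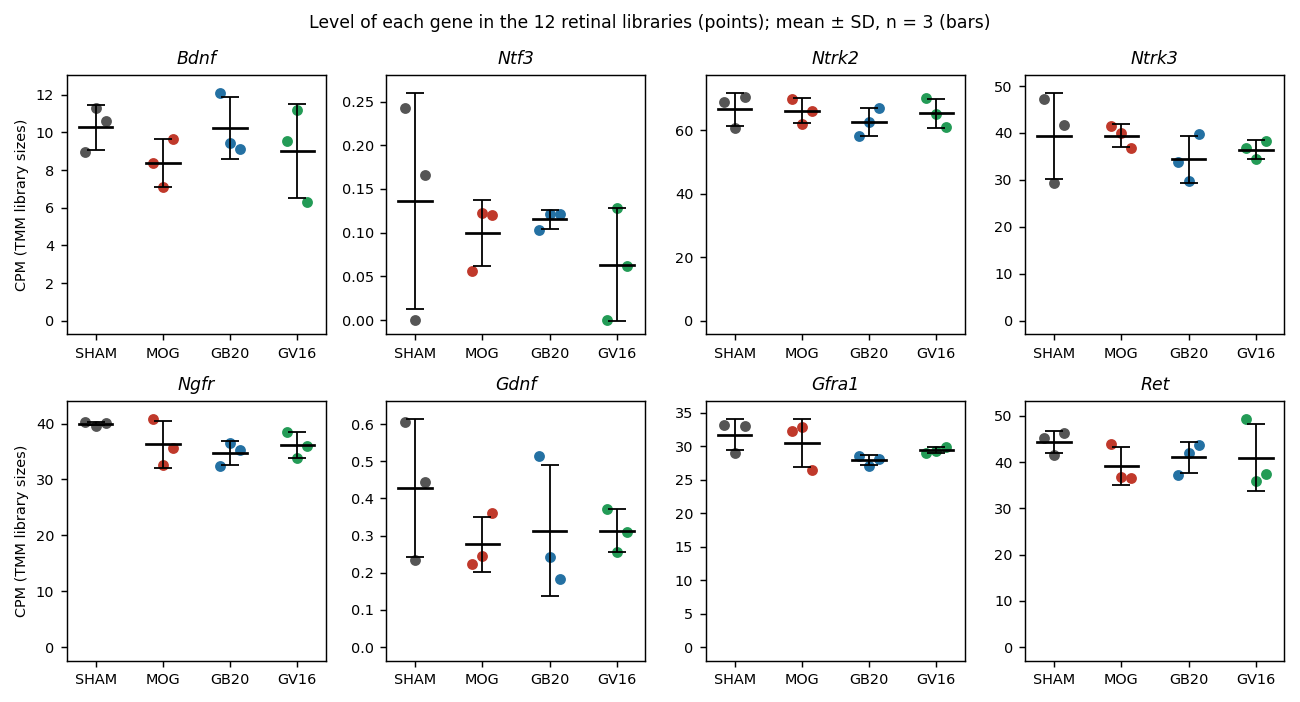
CPM of each of the 8 genes in each library (points, 3 per group, in replicate order), with the group mean (line) and SD (bars); each panel has its own axis that includes 0. Ngfr libraries of GB20 and GV16 sit at 32.4 to 38.6 CPM, all below the SHAM libraries at 39.6 to 40.2, while in the other panels most groups overlap.

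Over the 6 tested genes and 6 comparisons, 0 of 36 tests passed an adjusted p under 0.05 in edgeR, 1 had an unadjusted p under 0.05, and the smallest adjusted p was 0.481. DESeq2 on all 12 libraries, which tested all 8 genes, also called 0, with 1 of 48 tests at an unadjusted p under 0.05. DESeq2 on the 6 libraries of each comparison called 0 with 0 of 48, and limma on log2(FPKM + 1) called 0 with 1 of 36. Among all tested genes, the share called was 1.34% for MOG vs. SHAM, 0.344% for GB20 vs. SHAM and 0.656% for GV16 vs. SHAM. It was 0.24% for GB20 vs. MOG, 0.164% for GV16 vs. MOG and 0.00546% for GB20 vs. GV16. Against shares this low, a count of 0 among 6 genes is not a result about these genes. The differences ran from -0.29 to 0.29 and their intervals from -0.66 to 0.65, both ends set by Bdnf. For the other 5 genes the differences ran from -0.21 to 0.066, and the intervals between -28.7% and 22.3%.

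Groups that did not overlap in CPM were counted too, as a description. In GB20 vs. SHAM, 2 of 6 genes lay apart, Ngfr and Gfra1, both lower, where 12.7% of all tested genes lay apart. In GV16 vs. SHAM it was 1 of 6, Ngfr, against 14.5% of all genes, and in GB20 vs. GV16 it was 1 of 6, Gfra1, against 8.34%. None of the 6 lay apart in MOG vs. SHAM (16.2% of all genes), GB20 vs. MOG (15.7%) or GV16 vs. MOG (12.6%). The median difference of the 6 genes was -0.098 in MOG vs. SHAM, -0.15 in GB20 vs. SHAM and -0.11 in GV16 vs. SHAM. The median over all tested genes was -0.0023, 0.00085 and -0.0041. In the same order 5, 6 and 6 genes lay under 0, beside 50.5%, 49.7% and 51.0% of all tested genes. Among those under 0 were Ntrk2 in MOG vs. SHAM (-0.0099) and Bdnf in GB20 vs. SHAM (-0.0047), whose signs reversed in some settings. The 3 comparisons with SHAM share its libraries.

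**Figure D3:**
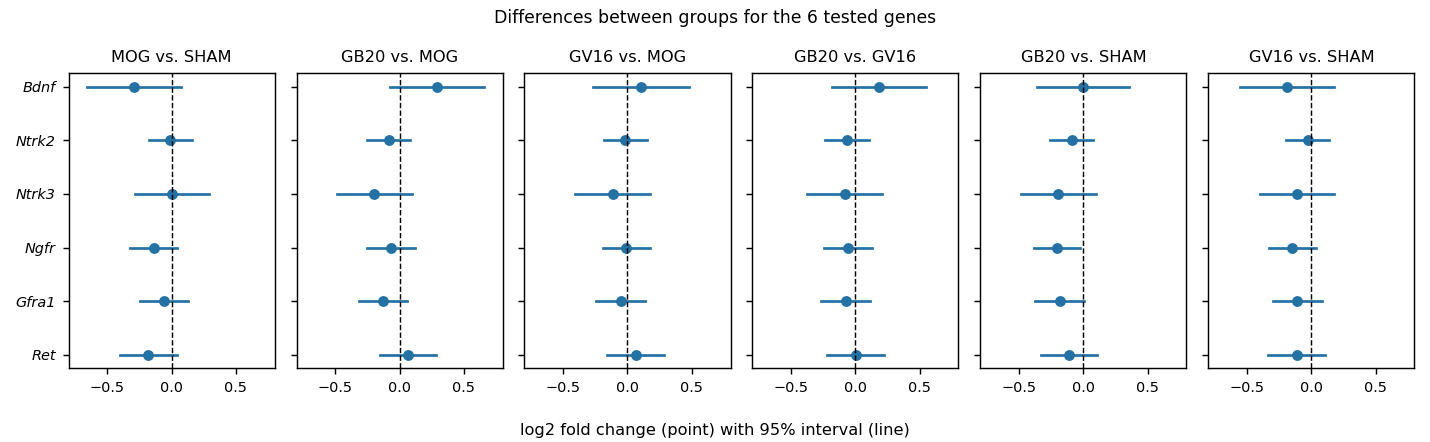
Log2 fold change (point) and 95% interval (line) of the 6 tested genes, with 1 panel per comparison. Every interval but that of Ngfr in GB20 vs. SHAM (-0.39 to -0.023) includes 0, and Bdnf has the widest intervals.

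Libraries differed in how their counts leaned towards long genes, and the levels of the longest members moved with this. The slope of log2 CPM on gene length, per doubling of length and relative to the mean of all libraries, was lowest in SHAM replicate 2 (-0.0475) and in GB20 replicates 1 (-0.0369) and 2 (-0.0236), and highest in SHAM replicate 3 (0.0301). Ntrk3, whose merged exons span 30170 bases, was lowest in SHAM replicate 2 and GB20 replicate 2. Over the 12 libraries Ntrk3 correlated with this slope at r = 0.77, Ntrk2 (19292 bases) at 0.74, Ngfr at 0.25 and Bdnf at -0.52. These values are a description over libraries that share the slope.

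With the length trend removed from each library, the Ntrk3 difference between MOG and SHAM changed from 0.0018 to -0.17 (SE 0.0853, adjusted p = 0.397). GB20 then differed from SHAM by -0.23 (adjusted p = 0.311) and GV16 by -0.26 (adjusted p = 0.178), all edgeR fits. Without SHAM replicate 2, Ntrk3 in GB20 differed from SHAM by -0.36 (interval -0.57 to -0.16, adjusted p = 0.0970), the smallest adjusted p for any of the 8 genes in any setting tried. Without that library GV16 differed from SHAM by -0.28 (adjusted p = 0.294) and MOG by -0.17 (adjusted p = 0.689). Without SHAM replicate 1, the highest Ntrk3 library, they moved the other way, to -0.045 for GB20, 0.039 for GV16 and 0.16 for MOG. None passed the threshold with or without either library.

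**Figure D4:**
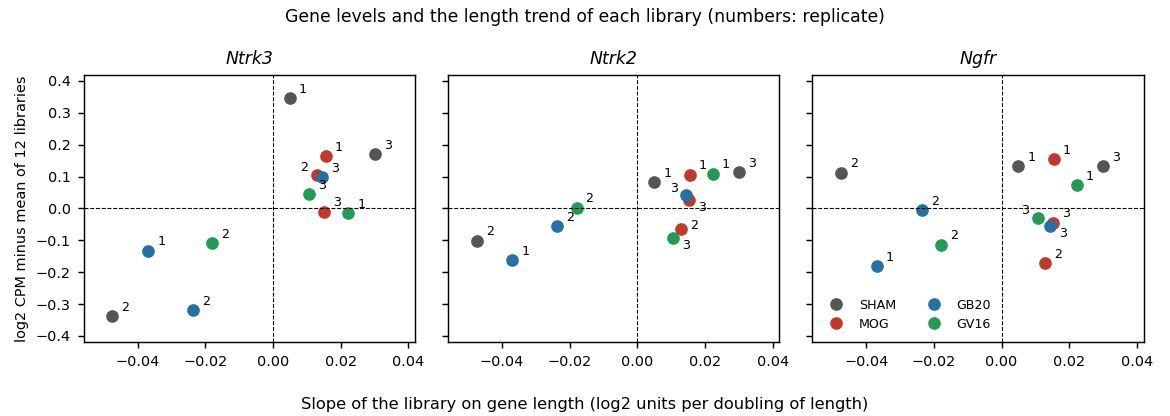
Level of Ntrk3, Ntrk2 and Ngfr in each library, as log2 CPM minus the mean of the 12 libraries, against the slope of that library on gene length; colours mark groups and numbers the replicate. SHAM replicate 2, at a slope of -0.0475, has the lowest Ntrk3 level, 0.339 below the mean on the log2 scale (-0.339), while its Ngfr level is above the mean (0.112).

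Other genes of the same pathways were described from lists written with earlier results of these data known. The neurotrophin list held 25 further genes, 24 of them tested: further ligands and receptors, the sortilin family that binds the precursors, processing enzymes and adaptors. None was called in any of the 6 comparisons by edgeR, with genes at an unadjusted p under 0.05 numbering 6 in MOG, 6 in GB20 and 4 in GV16 against SHAM, 5 in GB20 and 2 in GV16 against MOG and 0 between the sites. DESeq2 on 12 libraries called 1 of 150 tests, and DESeq2 on 6 libraries and limma on log2(FPKM + 1) called 0. For MOG vs. SHAM this is 25% of the list, where 13.0% of all tested genes were at that level, for GB20 vs. SHAM 25% against 9.06% and for GV16 vs. SHAM 16.7% against 10.9%. Against MOG it is 20.8% for GB20, beside 1464 of 18299 genes in all, and 8.33% for GV16, beside 969 of 18299, and none of these shares was tested. The median difference in MOG vs. SHAM was -0.066.

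The gene of this list with the smallest unadjusted p in MOG vs. SHAM was Gab1, a docking adaptor of receptor tyrosine kinases. It measured 22.1, 19.9 and 21.1 CPM across SHAM libraries, 17.2, 15.1 and 17.9 across MOG, 19.0, 20.9 and 21.7 across GB20 and 20.7, 17.3 and 20.7 across GV16. All MOG libraries lay below all SHAM libraries, but the difference of -0.33 (SE 0.105) did not pass adjustment (adjusted p = 0.155, edgeR).

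Sorcs3, Shc3 and Vgf were chosen after their values were seen, because some settings called them. Sorcs3, a sortilin-related receptor that binds neurotrophin precursors, measured 10.96, 9.94 and 11.8 CPM in SHAM and 6.59, 7.90 and 7.67 in GB20. It measured 9.12, 8.36 and 7.57 in MOG and 8.69, 7.26 and 8.79 in GV16, all below the SHAM libraries. In GB20 vs. SHAM its difference was -0.56 (SE 0.134, adjusted p = 0.0708), and it passed the threshold with DESeq2 on 12 libraries (adjusted p = 0.0472) and in 4 other settings (0.0236 without the filter, 0.0438 with a replicate block, 0.0474 with the length trend removed and 0.0473 without SHAM replicate 2). Shc3, an adaptor of Trk receptors expressed in neurons, differed by 0.57 in GV16 vs. SHAM (SE 0.166, adjusted p = 0.137). It passed in 3 settings, at 0.00371 without the filter (difference 0.57, SE 0.134), 0.0258 with a replicate block and 0.0289 without SHAM replicate 3. Vgf, a secreted neuropeptide precursor induced by neurotrophins, differed by -0.47 in GB20 vs. SHAM (SE 0.139, adjusted p = 0.213). It passed without the filter only (5.37e-05), where the difference was almost the same (-0.475) and the SE was smaller (0.0892).

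The GDNF family list held 20 further genes, 18 of them tested, among them the ligands Nrtn and Artn, the co-receptors Gfra2 and Gfra4, adaptors of Ret and genes induced by its signalling. None was called in any of the 6 comparisons by edgeR or by DESeq2 on 12 or 6 libraries or limma on log2(FPKM + 1), and in edgeR the genes at an unadjusted p under 0.05 numbered 2 in MOG, 2 in GB20 and 0 in GV16 against SHAM, 1 in GB20 and 2 in GV16 against MOG and 1 between the sites. The largest share, 11.1% of the list, stands beside 13.0% of all tested genes for MOG vs. SHAM, 9.06% for GB20 vs. SHAM and 5.30% for GV16 vs. MOG. The median difference was -0.15 in MOG vs. SHAM, 0.084 in GB20 vs. MOG and 0.082 in GV16 vs. MOG, all of which share the MOG libraries. Dok5, an adaptor of Ret, had the smallest unadjusted p in MOG vs. SHAM. It measured 10.2, 10.9 and 8.60 CPM in SHAM and 8.73, 7.005 and 6.18 in MOG, so the groups overlapped by 1 library each. The difference was -0.43 (SE 0.159, adjusted p = 0.235). Nrtn, the ligand of Gfra2, averaged 7.57 CPM in SHAM and 7.65 in MOG.

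Markers of the cells that could carry these genes were set beside them. Their lists were written with earlier results of these data known, so a high share called can be partly built in. Among all tested genes edgeR called 1.34% in MOG vs. SHAM. Of 15 RGC markers, 13 were called lower in MOG vs. SHAM, with a median of -0.89 over the list. The summed level of the 15 was 1193 to 1327 CPM in SHAM and 765 to 877 CPM in MOG. Pou4f1, a transcription factor of RGCs, averaged 32.9 CPM in SHAM and 16.1 in MOG (-1.03, adjusted p = 0.00239), and Rbpms 32.8 and 21.0 (-0.64, adjusted p = 0.0149). The 2 markers that did not pass were Ebf3 (-0.22) and Jam2 (0.041), named after their values were seen. The sum was 868 to 905 CPM in GB20, where 4 markers were called lower than in SHAM, and 754 to 979 CPM in GV16, where 12 were. Among all tested genes edgeR called 0.344% and 0.656% in these 2 comparisons. In each of them 13 of the 15 markers had an unadjusted p under 0.05 in edgeR. Compared directly, GB20 and GV16 differed in 0 called markers, with 1 at an unadjusted p under 0.05. DESeq2 on 12 libraries called 13 lower in MOG, 9 in GB20 and 12 in GV16 against SHAM, edgeR without SHAM replicate 2 called 10, 4 and 9, and limma on log2(FPKM + 1) called 10, 0 and 6. None was called against MOG at either site by edgeR, DESeq2 on 12 libraries or limma on log2(FPKM + 1), with 5 at an unadjusted p under 0.05 for GB20 and 0 for GV16 in edgeR. DESeq2 on 6 libraries called 1 higher in GB20 than in MOG, as did edgeR without SHAM replicate 2.

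Of 10 genes listed as gliosis markers, 9 were called higher in MOG vs. SHAM and 0 lay below 0, with a median of 1.30. Gfap averaged 23.1 CPM in SHAM and 54.9 in MOG (1.25, adjusted p = 0.00287, edgeR). The list includes Edn2 (1.73) and Fgf2 (1.13), and whole retina does not show which cells raised them. Summed over the 10 markers, the level was 153 to 180 CPM in SHAM, 322 to 400 in MOG, 281 to 322 in GB20 and 231 to 318 in GV16. The part of these shifts of RGC and gliosis markers in the values of the 8 genes was not tested. The 6 tested genes stayed between -0.29 and 0.0018 in the same comparison. The lower ends of their intervals there were -0.18 for Ntrk2, -0.25 for Gfra1, -0.29 for Ntrk3, -0.32 for Ngfr, -0.40 for Ret and -0.66 for Bdnf, and with the length trend removed -0.30 for Ntrk2 and -0.35 for Ntrk3.

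Markers of the other cells were counted in MOG vs. SHAM, and those of Müller cells also against MOG. Among 12 Müller cell markers 1 was called higher (Aqp4, 0.46) and 0 lower, and among 9 microglia markers 2 were called higher. Among 11 amacrine cell markers 1 was called lower (Calb2, -0.71), the only 1 at an unadjusted p under 0.05 in edgeR. The median of the amacrine list was 0.00098, and whole retina does not show in which cells Calb2 was lower. DESeq2 on 12 libraries also called 1 Müller cell marker lower. Microglia calls numbered 0 with limma on log2(FPKM + 1), 1 with DESeq2 on 6 libraries and 3 without SHAM replicate 2. None passed among 6 horizontal, 10 bipolar, 10 rod and 8 cone markers, 9 blood vessel markers and the tested markers of the pigment epithelium (7 of 8) and of erythrocytes (3 of 5), with 0, 1, 1, 2, 0, 3 and 0 genes at an unadjusted p under 0.05 in edgeR. DESeq2 and limma on log2(FPKM + 1) also called 0 in these lists, except that DESeq2 called pigment epithelium markers higher, 1 on 12 and 2 on 6 libraries. The 7 T cell markers failed the filter, at a sum of at most 1.61 CPM in any library. Rod markers summed to 55386 CPM or more in every library. Against MOG, edgeR called 1 of the 12 Müller cell markers higher (Car14) and 1 lower (Aqp4) at each site. Car14 differed by 0.50 in GB20 (adjusted p = 0.0158) and 0.50 in GV16 (adjusted p = 0.0202). Aqp4 differed by -0.35 (adjusted p = 0.0293) and -0.34 (adjusted p = 0.0472). At an unadjusted p under 0.05 were 6 markers in GB20 and 5 in GV16, with list medians of 0.061 and 0.018. The part of these shifts in the values of the 8 genes was not tested.

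**Figure D5:**
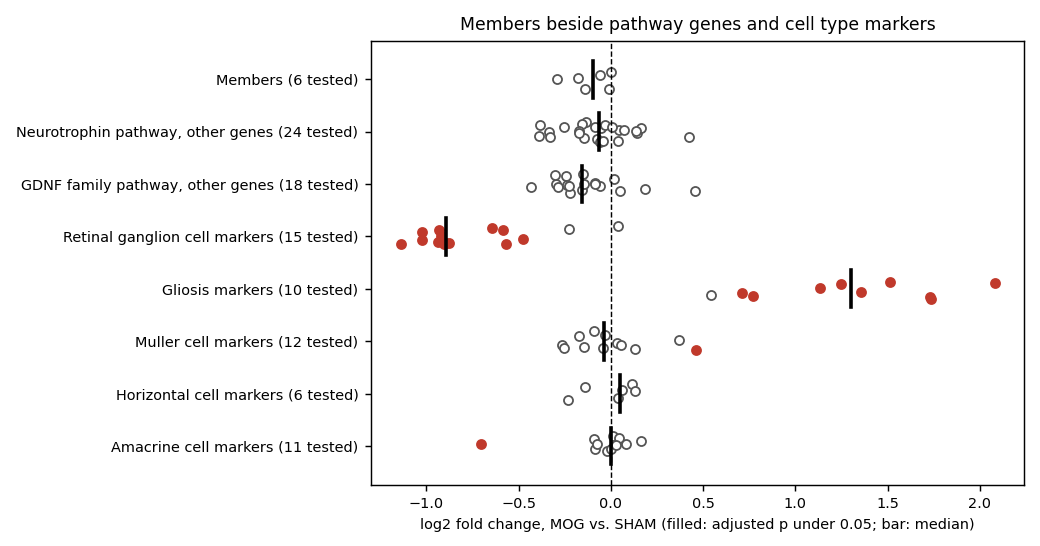
Log2 fold change between MOG and SHAM for each gene of 8 lists (points; filled where the adjusted p was under 0.05), with the median of each list (bar). The 6 tested members lie between -0.29 and 0.0018, all unfilled, while 13 of 15 RGC markers are filled below 0 and 9 of 10 gliosis markers are filled above 0. All lists were written with earlier results of these data known.

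The genes whose log2 CPM followed each tested member most closely over the 12 libraries were found among 16051 genes with a mean of at least 1 CPM. Pearson's r is given as a description, over libraries that share depth and length trend. Bdnf was followed by Grcc10 (r = 0.88), Urm1 (0.88) and Mageh1 (0.87). Ntrk2 was followed by Rap1gap2 (0.94), Rmnd5a (0.94) and Shisal1 (0.94), and Ntrk3 by Mef2c (0.94), Cnksr2 (0.94) and Tmx4 (0.94). Ngfr was followed by Nsf (0.95), Cacng4 (0.94) and Rtn3 (0.93), Gfra1 by Sytl2 (0.90), Gm43437 (0.88) and Cdc34b (0.88), and Ret by Rims1 (0.93), Rgs7bp (0.91) and Cdh5 (0.90). None of these 18 genes is on the 2 pathway lists, and Cdh5 is on the list of blood vessel markers. Each was picked as highest among 16051 genes over 12 libraries, so a high r can arise without any link.

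Among the members, Ngfr and Ret ran most alike over the libraries (r = 0.77), followed by Ntrk3 and Gfra1 (0.69) and Ntrk2 and Ret (0.69). The pair of a ligand and its own receptor was not alike for Bdnf and Ntrk2 (r = -0.025), and Bdnf and Ntrk3 ran most opposite (-0.43). Over the same libraries the length slope correlated with Bdnf at -0.52, with Ntrk3 at 0.77 and with Ntrk2 at 0.74. The part of the slope in the r of these pairs was not tested. Gfra1 and Ret, the parts of the GDNF receptor complex, had an r of 0.28.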

How the data were processed

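Retinal RNA of 12 libraries, 3 per group, was analysed, grouped by the sample labels. Polyadenylated RNA had been made into paired-end libraries with the NEBNext Ultra kit. The authors aligned reads with HISAT2 2.0.5 to mm10, per the labels, counted them per gene with FeatureCounts and deposited raw counts, and the authors computed FPKM from the same counts and the gene length. The strand setting of the counting is not given in the sources used here. Libraries held 15860278 to 19194280 counts, which limits genes of a few counts such as Ntf3 and Gdnf, and limits and intervals of single counts cover counting error only. Names and coordinates came from GENCODE vM21 (GRCm38), which held 54409 of 54532 identifiers.

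The main test was the quasi-likelihood test of edgeR 4.0.16 (R 4.3.3) on the counts, with TMM scaling, filtering by expression, 1 mean per group over all 12 libraries (8 residual degrees of freedom) and Benjamini-Hochberg adjustment over 18299 genes. A gene was called at an adjusted p under 0.05. P-values are 2-sided and set each difference against the spread between these libraries. In edgeR the spread of a gene was estimated with help from the other tested genes, and the common biological CV was 8.42%. Alternatives were DESeq2 1.42.0, other scaling and filters, a replicate block, a length correction and limma 3.58.1 on log2(FPKM + 1) or log2(FPKM + 0.1). Scripts were tested on simulated data. FPKM served for levels between genes and CPM, with TMM library sizes, for levels between groups.

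The 8 genes, the 2 pathway lists and the 13 marker lists were chosen with earlier results of these data known. Named beside the 8 genes were every pathway gene called by the edgeR fit or otherwise the one with the smallest p in MOG vs. SHAM, the 3 genes most correlated with each tested member, the markers Pou4f1, Rbpms and Gfap, and markers needed to describe their list. Sorcs3, Shc3, Vgf and Nrtn were named after their values were seen.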

Additional observations from a re-analysis of the deposited data

How the results depend on the processing

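None of the 6 genes that passed the filter was called in any of the 6 comparisons under any of 22 alternative settings, 12 of which leave out 1 library each, and Ntf3 and Gdnf were not called in the unfiltered and DESeq2 fits that tested them (876 tests with those of the edgeR fit reported, 39 with an unadjusted p under 0.05, smallest adjusted p 0.0970). Of 432 log2 differences without 1 library, 399 kept their sign and 33 reversed. Many of the kept signs come from fits without a library of neither group compared, which hardly moves the difference, so they say little about stability. Of 360 under the other settings 350 kept the sign and 10 reversed. None of the reversed values was called. With the length trend removed, Ntrk3 in MOG vs. SHAM was -0.17 and in GB20 vs. GV16 0.030, Ntrk2 was 0.027 in GB20 vs. MOG, 0.0050 in GV16 vs. MOG and 0.022 in GB20 vs. GV16, and Bdnf in GB20 vs. SHAM was 0.0060. Ntrk3 in MOG vs. SHAM was -0.0034 without the filter. Bdnf in GB20 vs. SHAM was 0.00088 with size factors in place of TMM. Ret in GB20 vs. GV16 was -0.0012 with DESeq2 and -0.00028 with edgeR on 6 libraries. The cause was not tested.

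Without 1 library at a time, Bdnf ran from -0.016 to 0.37 in GB20 vs. GV16, -0.14 to 0.073 in GB20 vs. SHAM, -0.082 to 0.30 in GV16 vs. MOG and -0.37 to 0.011 in GV16 vs. SHAM. Gfra1 ran from -0.15 to 0.0028 in GV16 vs. MOG and -0.11 to 0.045 in MOG vs. SHAM. Ngfr ran from -0.14 to 0.027 in GB20 vs. MOG and -0.080 to 0.085 in GV16 vs. MOG. Ntrk2 ran from -0.070 to 0.032 in GV16 vs. MOG, -0.086 to 0.022 in GV16 vs. SHAM and -0.067 to 0.033 in MOG vs. SHAM. Ntrk3 ran from -0.20 to 0.0084 in GB20 vs. GV16, -0.28 to 0.039 in GV16 vs. SHAM and -0.17 to 0.16 in MOG vs. SHAM. Ret ran from -0.083 to 0.16 in GB20 vs. GV16 and -0.090 to 0.16 in GV16 vs. MOG.

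Where the sign held, the range without 1 library was 0.14 to 0.39 for Bdnf in GB20 vs. MOG, -0.39 to -0.19 for Bdnf, -0.23 to -0.067 for Ngfr and -0.27 to -0.13 for Ret in MOG vs. SHAM, -0.27 to -0.031 for Ret in GV16 vs. SHAM, -0.31 to -0.11 for Ntrk3 in GB20 vs. MOG and -0.36 to -0.045 in GB20 vs. SHAM, and -0.23 to -0.072 for Gfra1 in GB20 vs. MOG.

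The number of called genes over all genes moved more than 1.5 times: from 245 to between 55 and 539 in MOG vs. SHAM, from 44 to between 6 and 140 in GB20 vs. MOG, from 30 to between 4 and 73 in GV16 vs. MOG, from 1 to between 0 and 8 in GB20 vs. GV16, from 63 to between 5 and 282 in GB20 vs. SHAM and from 120 to between 4 and 395 in GV16 vs. SHAM. The study repeated its experiment and the labels number the replicates, but no label ties a number to a repeat. Same-numbered libraries deviated together in part. Their r ran from -0.097 to 0.29 in 18 pairs (median 0.032), against -0.20 to 0.11 in 36 other pairs (median -0.015). Set against the 3 libraries of each other group, a library was most alike to its own number in 19 of 36 cases. Not every pair was above the 0.1 set for pairing, so the fit without the block was kept. Its p-values take no account of a shared repeat, and a shared batch was not tested further. A fit with the replicate number as a block called 0 of the 6 genes it tested (smallest adjusted p 0.355) and 404, 73, 47, 1, 182 and 236 genes in the comparisons in the order just given. Depth limits Ntf3 and Gdnf, and the spread of 3 libraries limits Bdnf.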
